A study of Homo sapiens with 8 samples.

Results

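The comparison set the 2 SH-SY5Y clones in which DJ-1 had been silenced, clones B and G, against 1 control clone, clone H. SH-SY5Y is a human cell line grown from a neuroblastoma, a tumour of sympathetic precursors. Of the 8 arrays of the series, 6 belonged to it: 4 arrays of cells carrying a stable RNAi construct against DJ-1, 2 from clone B and 2 from clone G, and the 2 arrays of scramble clone H. The arrays were chosen by their titles. The 2 arrays of the other scramble clone, M, were left out, since clone M had a more mesenchymal expression pattern than the rest, and they appear only as a reference for where that clone lay. The titles give stable transfection for clones B and G, and call clones H and M scramble controls without naming how they were made. The vector, its promoter and the RNAi sequence are not given in the sources used here. Each clone is a single isolate, so what differs between knockdown and clone H cannot be told apart from what is peculiar to clone H. The duplicates are numbered 1 and 2 in every clone, and nothing says that they came from separate cultures. P-values therefore measure the spread between these arrays, which may be technical. In the test of both knockdown clones together that spread also holds the gap between B and G. It holds no spread between control clones.

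DJ-1, the product of PARK7, is a redox-sensitive protein, and loss of both copies causes a recessive form of Parkinson disease. RET is the signalling receptor of the GDNF family, whose ligands bind it together with a GFR-alpha co-receptor and which maintains sympathetic and dopaminergic neurons. PTBP2 is the neuronal member of the polypyrimidine tract binding proteins, splicing repressors whose general form, PTBP1, dampens it by promoting an unproductive splice form. MFN1 is a GTPase of the outer mitochondrial membrane that fuses mitochondria. Neuroblastoma lines mix an adrenergic state, marked by factors such as HAND2 and GATA3, with a mesenchymal state, marked by genes such as VIM and CDH11.

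All values are deposited log2 signals of probe sets, so a difference of 1 is a 2-fold difference, and 22215 probe sets were tested. Array medians ran from 8.03 to 8.08. The mean signal of 34 mesenchymal markers was 7.23 to 7.55 in the knockdown arrays, 7.42 to 7.72 in clone H and 8.29 to 8.32 in clone M. For 20 fibroblast and smooth muscle markers the ranges were 6.86 to 7.17, 7.14 to 7.20 and 7.64 to 7.87, so clone H lay far nearer to the knockdown clones than clone M did. Schwann, leukocyte and epithelial marker means all lay between 6.08 and 6.50. No detection calls were used, so a marker at background could not be told from a low one. The difference between the 3' and 5' probe sets of ACTB, a measure of RNA integrity, was 0.24 to 0.46 in the knockdown arrays, 0.19 to 0.30 in clone H and 0.10 to 0.11 in clone M. For GAPDH it was 0.048 to 0.093, 0.032 to 0.13 and 0.021 to 0.038. Its part in the results below was not tested.

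Against clone H, 1868 probe sets changed, 8.41% of those tested. Of these, 1029 rose (4.63%) and 839 fell (3.78%), and 113 differed at least 2-fold, 65 upward and 48 downward. The test was limma's, with the replicate number as a block and a Benjamini-Hochberg adjusted p under 0.05. Without the block the same test called 86 probe sets, and each of those 86 was also called with it, in the same direction. The count therefore depended on the block. Leaving out array H1 gave 639 calls, B2 937, G2 1025, and each of the other 3 arrays between 1291 and 1876.

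Each knockdown clone was then set against clone H by itself. Clone B differed from H in 1551 probe sets (6.98%) and clone G in 1057 (4.76%). Both comparisons share the arrays of clone H. Of the 1868 changes, 878 were called in both clones (3.95% of all probe sets), 452 upward and 426 downward. Another 449 were called in B only, 110 in G only and 431 in neither clone taken singly. No called change had opposite signs in B and G, but the test of both clones together counts the gap between B and G as error. A change with opposite signs could hardly be called, so this agreement is no finding. Of the 113 changes of at least 2-fold, 105 were called in both clones. In 4631 probe sets (20.8%) the knockdown and clone H arrays did not overlap, and 1388 of these were called.

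The targeted transcript fell in both clones and on every array. PARK7 read 10.45 and 10.12 in clone B, 10.10 and 10.05 in clone G, and 13.11 and 13.14 in clone H. The 4 knockdown arrays sat together, far below both control arrays, and clone M, at 13.11 and 12.95, sat with H. The mean fell by 2.95 (SE 0.10), a 7.72-fold difference, from 13.13 ± 0.02 (SD, n = 2 arrays) to 10.18 ± 0.18 (SD, n = 4), with limma adjusted p = 6.23e-06. Clone B minus H was -2.84 and clone G minus H -3.06.

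RET fell on all 3 of its probe sets. The brightest read 10.82 and 10.29 in clone B, 10.94 and 10.53 in clone G, and 12.20 and 12.44 in clone H. No knockdown array came within 1 log2 unit of a clone H array, and clone M stood highest, with a mean of 12.67. RET fell by 1.68 (SE 0.14) with limma adjusted p = 0.000551, by 1.77 in clone B and by 1.59 in clone G. The other 2 probe sets fell by 1.31 and 1.38. On those, clone H itself was lower than clone M by 0.74 and 0.79 (limma adjusted p = 0.0178 and 0.0447), so the fall against H is smaller there than the fall against both controls, 1.68 and 1.77.

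PTBP2 rose and MFN1 fell, and for both genes clones H and M gave nearly the same level. PTBP2 read 11.52 and 11.40 in clone B, 11.30 and 11.22 in clone G, and 9.84 and 9.91 in clone H, a rise of 1.48 (SE 0.09, limma adjusted p = 0.000163). The brightest MFN1 probe set read 9.45 and 9.38 in clone B, 9.44 and 9.31 in clone G, and 10.43 and 10.41 in clone H. It fell by 1.02 (SE 0.07, limma adjusted p = 0.000246), and the other 2 MFN1 probe sets fell by 0.71 and 0.82. Groups overlapped on none of these probe sets, and PARK7, RET, PTBP2 and MFN1 kept their direction and their call on the brightest probe set in each alternative analysis, the fit without the block included.

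**Figure D1:**
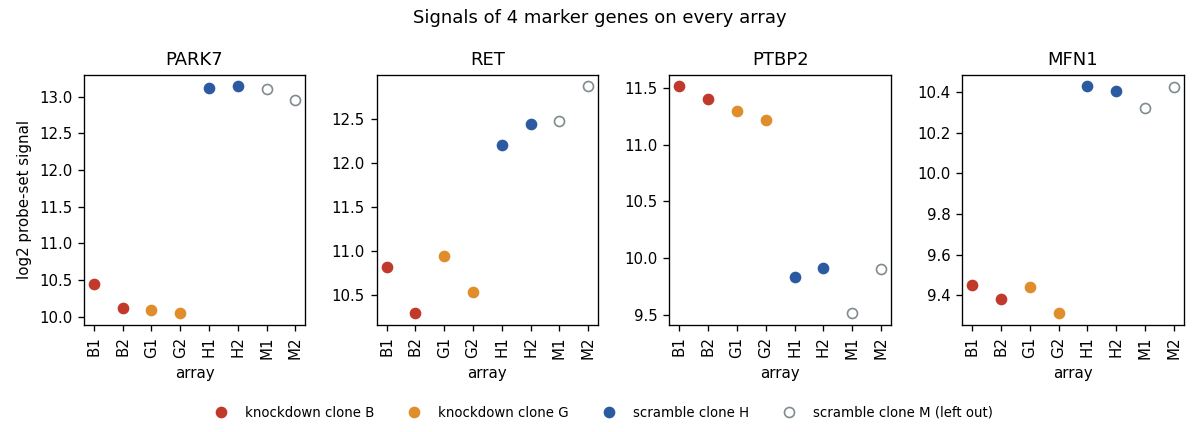
Log2 probe-set signal (vertical axis, a separate scale per panel) of PARK7, RET, PTBP2 and MFN1 on each array, with filled points for knockdown clones B and G and control clone H and open points for clone M, which was left out of the test. For RET and MFN1 the brightest probe set is drawn. Both knockdown clones sit on the same side of clone H in all 4 panels, with PARK7 at -2.95 and PTBP2 at 1.48 relative to H.

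Counts of called list members, here and below, stand beside 9.47% of all genes called against H, 5.07% higher and 4.41% lower. Calls are for the mean of clones B and G, and not every called member was called in each clone. RET belongs to the GDNF family list. Of 11 measured members of the list, 3 fell, RET, GDF15 and SORL1, and 1 rose, NCAM1. GDF15, a stress-induced ligand that signals through RET with its own co-receptor, read 6.19 and 6.99 in clone B, 6.29 and 7.18 in clone G, and 8.08 and 7.61 in clone H, and fell by 1.19 (SE 0.24, limma adjusted p = 0.0215). SORL1, a sorting receptor that carries GDNF and its co-receptor, fell by 0.55. The co-receptors GFRA1, GFRA2 and GFRA3 differed by 0.07, 0.05 and 0.22, and the ligand NRTN by -0.49 (limma adjusted p = 0.076), none of them called. NCAM1, which binds GDNF without RET, rose by 0.21 and was called in neither clone taken singly.

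Of 23 transcription factors of RET and of sympathetic neuroblasts, 3 rose and 2 fell. EYA1, a phosphatase and co-activator of homeobox factors, read 11.44 and 11.34 in clone B, 11.18 and 11.24 in clone G, and 9.89 and 10.23 in clone H, a rise of 1.24 (SE 0.10, limma adjusted p = 0.000475). LMO1, a cofactor of the neuroblastoma transcription circuit, rose by 0.36, and HAND1 by 0.59. KLF7 and TBX2 fell by 0.39 and 0.35. Of the other members, GATA3 differed by 0.11, TFAP2B by 0.09, ISL1 by 0.09, HAND2 by 0.04 and PHOX2A by -0.03, none of them called. MYCN differed by -0.50, also not called (limma adjusted p = 0.30).

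PTBP2 was not the only splicing regulator to move. Of 23 measured on the list, 4 rose and 2 fell. PTBP1 read 11.54 and 11.24 in clone B, 11.63 and 11.35 in clone G, and 12.22 and 12.02 in clone H, so the general and the neuronal form moved in opposite directions. PTBP1 fell by 0.68 (SE 0.06, limma adjusted p = 0.00051). CELF1 rose by 0.33, NOVA1 by 0.37 and QKI by 0.30, while RBFOX2 fell by 0.23. QKI did not hold with both controls, where it differed by 0.04, since clone M lay 0.54 above clone H. The neuronal ELAVL2, ELAVL3 and ELAVL4 differed by -0.09, 0.02 and 0.06, none called.

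Among 24 genes of mitochondrial dynamics and mitophagy, 2 rose and 3 fell. CALCOCO2, an autophagy receptor also called NDP52, read 8.55 and 8.56 in clone B, 8.74 and 8.56 in clone G, and 9.63 and 9.49 in clone H, and fell by 0.96 (SE 0.08, limma adjusted p = 0.000551). FIS1, which recruits the fission machinery to mitochondria, read 12.11 and 12.02 in clone B, 12.02 and 11.88 in clone G, and 11.54 and 11.38 in clone H. Its rise of 0.55 (SE 0.06, limma adjusted p = 0.00127) ran opposite to the fall of the fusion gene MFN1. TFAM, the packaging factor of mitochondrial DNA, rose by 0.37, and the mitophagy receptor BNIP3L fell by 0.32. MFN2 and OPA1, the other fusion GTPases, differed by 0.04 and -0.11 and DNM1L, the fission GTPase, by 0.09, none called. Of 28 complex I subunits none was called, with a median difference of 0.04.

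Of 17 measured Parkinson disease genes, PARK7 included, MAPT, the tau gene, and SYNJ1, a synaptic phosphatase, rose, by 0.35 and 0.29, and PARK7 fell. Neither rise was called in clone B or in clone G taken singly. PINK1 differed by -0.09 and UCHL1 by -0.04, neither called.

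The question of which changes stay without clone M was answered by setting the test against H beside the same test with both scramble clones, which called 1568 probe sets (7.06%). The 2 tests share the knockdown arrays and clone H. In all, 1226 probe sets were called in both, in the same direction: 78.2% of the list with both controls and 65.6% of the list against H. Of these, 671 rose and 555 fell, 684 were called in both knockdown clones, and 99 differed at least 2-fold from clone H. Without clone M, 342 calls were lost, and 642 were called against H alone. Against clone M itself the knockdown arrays differed in 5447 probe sets (24.5%), and clones H and M differed from each other in 1538 (6.92%).

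The largest rises that stayed were taken, like the falls, among probe sets called in both clones. Their brighter group had to reach the median signal, and their groups were not to overlap. GNAS, the gene of the G protein that activates adenylyl cyclase, read 11.44 and 11.99 in clone B, 11.33 and 11.79 in clone G, and 9.02 and 9.42 in clone H on 1 probe set, a rise of 2.42 (SE 0.07, limma adjusted p = 5.47e-06). Only 2 of 9 GNAS probe sets were called, and the brightest differed by 0.05. CDC42, a small GTPase of the actin cytoskeleton, rose by 1.87 and 1.50 on 2 of 4 probe sets, while the brightest differed by 0.12. For both genes the called probe sets therefore do not stand for the whole transcript output.

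FLRT3 and ADGRL3, a membrane protein and the latrophilin receptor it binds, both rose. ADGRL3 read 8.71 and 8.01 in clone B, 8.16 and 8.09 in clone G, and 6.76 and 6.97 in clone H, a rise of 1.38 (SE 0.17, limma adjusted p = 0.00306). FLRT3 rose by 1.63 (SE 0.31, limma adjusted p = 0.0164), with its clone H arrays 1 log2 unit apart at 6.01 and 7.01. PLXNC1, a semaphorin receptor, rose by 1.56, the metabotropic glutamate receptor gene GRM8 by 1.66, and ANO3, of the anoctamin family, by 1.96. STMN4, a tubulin-binding stathmin, rose by 1.35 and the armadillo protein gene PKP4 by 1.39. NELL1, a secreted protein, rose by 1.79 (SE 0.37), by 2.35 in clone B and by 1.23 in clone G. TPM1, a tropomyosin, rose by 1.32 on 1 of 4 probe sets, and on another it differed by -0.04.

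The largest falls that stayed, among probe sets at or above the median signal, included PARK7, RET and the genes that follow. TFPI2, a protease inhibitor of the extracellular matrix, read 10.45 and 8.22 in clone B, 9.59 and 7.82 in clone G, and 12.36 and 10.85 in clone H, and fell by 2.58 (SE 0.22, limma adjusted p = 0.000551). Replicate 1 read higher than replicate 2 in each of these clones, and the knockdown arrays lay below the clone H array of the same number. NPY, the neuropeptide stored with noradrenaline, read 11.11 and 9.71 in clone B, 11.29 and 10.25 in clone G, and 12.81 and 12.18 in clone H, and fell by 1.90 (SE 0.16, limma adjusted p = 0.000551). Clone M stood beside H for NPY, 0.01 apart. The complement component C7 fell by 2.12, the heparan sulfate sulfotransferase HS3ST2 by 1.55, and POPDC2, a Popeye domain protein, by 1.63.

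CDH11, a mesenchymal cadherin, fell by 1.54 and TNS3, a tensin of focal adhesions, by 1.51. Both were higher still in clone M, by 1.15 and 0.84 over clone H, neither difference being called on these probe sets. GAREM1, an adaptor of growth factor signalling, fell by 1.81, the neuron navigator NAV2 by 1.54 and the endosomal adaptor TOM1L1 by 1.19. Calls in clone B and in clone G were a condition for naming these rises and falls, so that agreement is no finding.

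**Figure D2:**
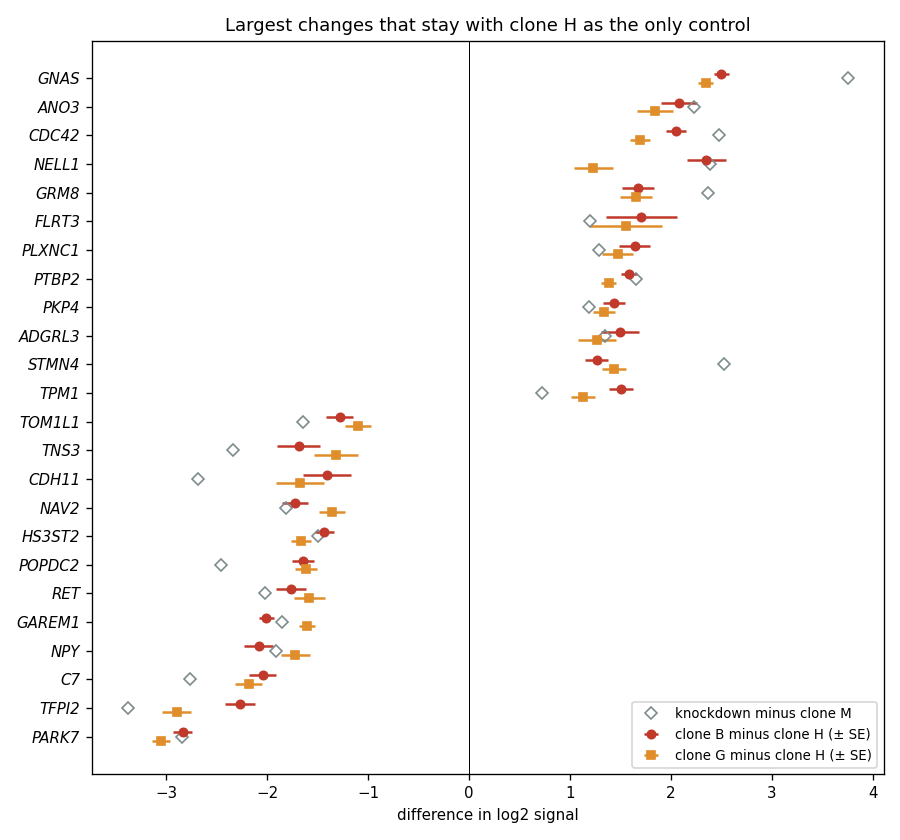
Difference in log2 signal from clone H for clone B (circles) and clone G (squares), each with its standard error, and the knockdown mean minus clone M (open diamonds, not part of the test), for the 12 largest rises and 12 largest falls called against clone H, in both clones and with both controls. Only genes whose groups did not overlap and whose brighter group reached the median signal of all probe sets are drawn, which leaves out dimmer ones such as DKK2 and ERBB4. Circles and squares lie on the same side of 0 by that choice, while the diamonds lie farther out for genes such as GNAS, STMN4, TFPI2 and CDH11.

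Some calls made against clone H but not with both controls were genes in which the 2 controls disagreed. Clone H was the outlying clone for HSD17B12, the 3-ketoacyl-CoA reductase of fatty acid elongation. It read 11.42 and 11.26 in clone B, 11.12 and 11.21 in clone G, 11.23 and 11.30 in clone M, and 7.09 and 5.50 in clone H. Its difference of 4.96 (SE 0.28, limma adjusted p = 0.000163) went with the low level of clone H, and the knockdown differed from clone M by -0.01. Of the 1868 changes, 74 were of this kind: clone H was called apart from clone M in the same direction as from the knockdown, and the knockdown was not called against M. Of these, 39 were higher in the knockdown and 35 lower, and 6 differed at least 2-fold.

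GAS1, a membrane-anchored protein related to the GDNF co-receptors, read 8.90 and 8.19 in clone B, 8.67 and 8.36 in clone G, 7.44 and 7.35 in clone H, and 8.63 and 8.82 in clone M. It was 1.14 above clone H and 0.19 below clone M. ABCG1, a cholesterol exporter, read 8.50 and 8.61 in clone B, 8.57 and 8.51 in clone G, 9.43 and 9.38 in clone H, and 8.10 and 7.99 in clone M. It lay between the controls, 0.86 below clone H and 0.50 above clone M. FAT4, a protocadherin, was 1.12 above clone H and 0.20 above clone M, and NR3C1, the glucocorticoid receptor, 0.93 and 0.15 above them, with 3 of its 4 probe sets called.

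Other calls against H alone had clone M still farther away. TPBG, an oncofetal surface glycoprotein, read 9.33 and 8.17 in clone B, 9.23 and 8.40 in clone G, 9.79 and 9.46 in clone H, and 11.33 and 11.88 in clone M. It fell by 0.84 against H and differed by -1.83 with both controls, where the distance between the controls entered the error (limma adjusted p = 0.0716). TRIL, a co-receptor of Toll-like receptor signalling, behaved alike, with -0.72 and -1.39. Over the 642 calls made against H alone, clone M lay on the side of H in 541, in 200 of them farther from the knockdown than H, and past the knockdown in 101.

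The smaller calls of this class included the nuclear lamina gene LMNB1, higher by 0.78, the centromere gene CENPN, by 0.73, the actin-associated PDLIM3, by 0.99, and the cytokine gene IL7, by 0.84. Lower were the sodium pump subunit ATP1B1, by 0.65, the vitamin A transporter STRA6, by 0.73, the RNA-binding HNRNPD, by 0.73, and the membrane metalloproteinase MMP16, by 0.68. DBNDD1 fell by 0.67. With both controls these 9 probe sets kept their sign and missed the threshold. Other probe sets of PDLIM3 and ATP1B1 were called there in the same direction, and another of HNRNPD rose, by 0.49 against H.

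**Figure D3:**
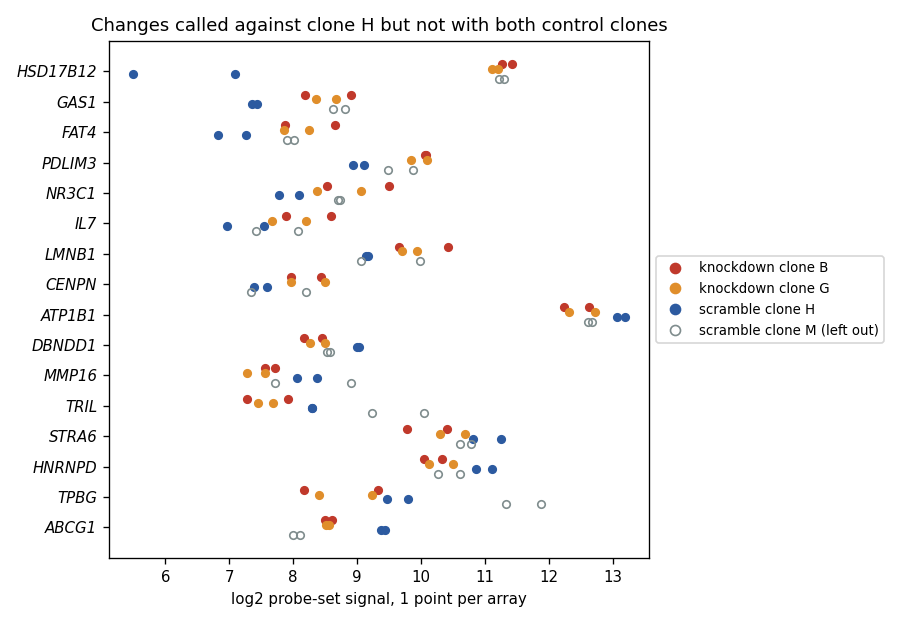
Log2 signal of the 8 largest rises and 8 largest falls called against clone H and in both knockdown clones but not with both controls, under the same signal and overlap limits, 1 point per array. The filled blue points of clone H stand alone for HSD17B12, and the open points of clone M lie with the knockdown for GAS1 and beyond clone H for TPBG and TRIL.

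The 342 calls lost without clone M, 223 higher and 119 lower, all kept their sign against H. The test with both controls counts the gap between H and M as error. A change that turned against H could hardly be called there, so the kept signs are no finding. Each lost call had an unadjusted p under 0.05 against H, and the adjusted p ran from 0.0501 to 0.169. Their median size was 0.362 with both controls and 0.292 against H, and clone M was farther from the knockdown than H in 315. Among the largest, DACH1, a transcription factor, differed from H by 0.70 and MAP3K5, the stress kinase ASK1, by 0.49. The licensing factor CDC6 differed by 0.54 (limma adjusted p = 0.0511), and the histone genes H3C11 and H2AC14 by 0.44 and 0.47. On the lower side were the muscarinic receptor gene CHRM3, at -0.64, the scaffold IQGAP1, at -0.47, the lysosomal LAMP2, at -0.37, and MFGE8, at -0.31.

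Genes of the mesenchymal state differed less from clone H than from clone M, which follows from leaving out clone M for its mesenchymal pattern. Against clone M, 17 of 34 mesenchymal markers were lower in the knockdown clones and none higher, and against clone H 6 were lower and none higher. Over all probe sets, 24.5% were called against clone M, in either direction. The median difference was -0.30 against M, -0.21 with both controls and -0.06 against H, beside -0.0024 over all genes with 1 probe set each. Of such genes, 9.47% were called against H, 5.07% higher and 4.41% lower. The 6 markers that fell against H were NOTCH2, CDH11, ANXA2, EGFR, S100A6 and VIM, and each fell in both clones. ANXA2 and VIM were not called with both controls (limma adjusted p = 0.0625 and 0.0767).

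NOTCH2, a Notch receptor, read 9.75 and 8.11 in clone B, 9.42 and 8.40 in clone G, 10.70 and 9.72 in clone H, and 11.29 on average in clone M, and fell by 1.29 against H (SE 0.13, limma adjusted p = 0.00108). VIM, the intermediate filament of mesenchymal cells, read 12.64 and 12.17 in clone B, 12.55 and 12.07 in clone G, and 13.14 and 12.41 in clone H. Its fall of 0.42 was much smaller than the 1.19 by which clone M exceeded clone H. ANXA2, a membrane-binding annexin, fell by 0.48, EGFR by 0.45 and S100A6, a calcium-binding protein, by 0.43. Without the replicate block none of the 6 was called, and without array H1 the list held 3 calls.

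Matrix and adhesion genes gave a similar picture. Of 52, 28 were lower against clone M, where 24.5% of all probe sets were called in either direction. Against H 10 fell and 2 rose, with a median of -0.07 against H and -0.30 with both controls. ITGB1, the shared beta subunit of many integrins, read 12.09 and 11.84 in clone B, 12.17 and 12.05 in clone G, and 13.04 and 13.09 in clone H. It fell by 1.03 (SE 0.07, limma adjusted p = 0.000343), with clone M 0.28 above H. The basement membrane genes LAMC1, COL4A1, NID1, LAMA5, COL4A2 and LAMB1 fell by 0.73, 0.75, 0.70, 0.52, 0.38 and 0.25, and ITGA9 by 0.37. CDH2, the neural cadherin, rose by 0.45 against H but differed from clone M by -0.13, and COL6A1 rose by 0.27.

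Of 20 fibroblast and smooth muscle markers, 1 fell, ACTA2, by 0.55, and none rose. Against clone M, where 24.5% of all probe sets were called, 8 were lower. None of the 12 Schwann and melanocytic, 17 leukocyte or 14 epithelial markers was called against H, with medians of -0.07, -0.04 and -0.02.

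**Figure D4:**
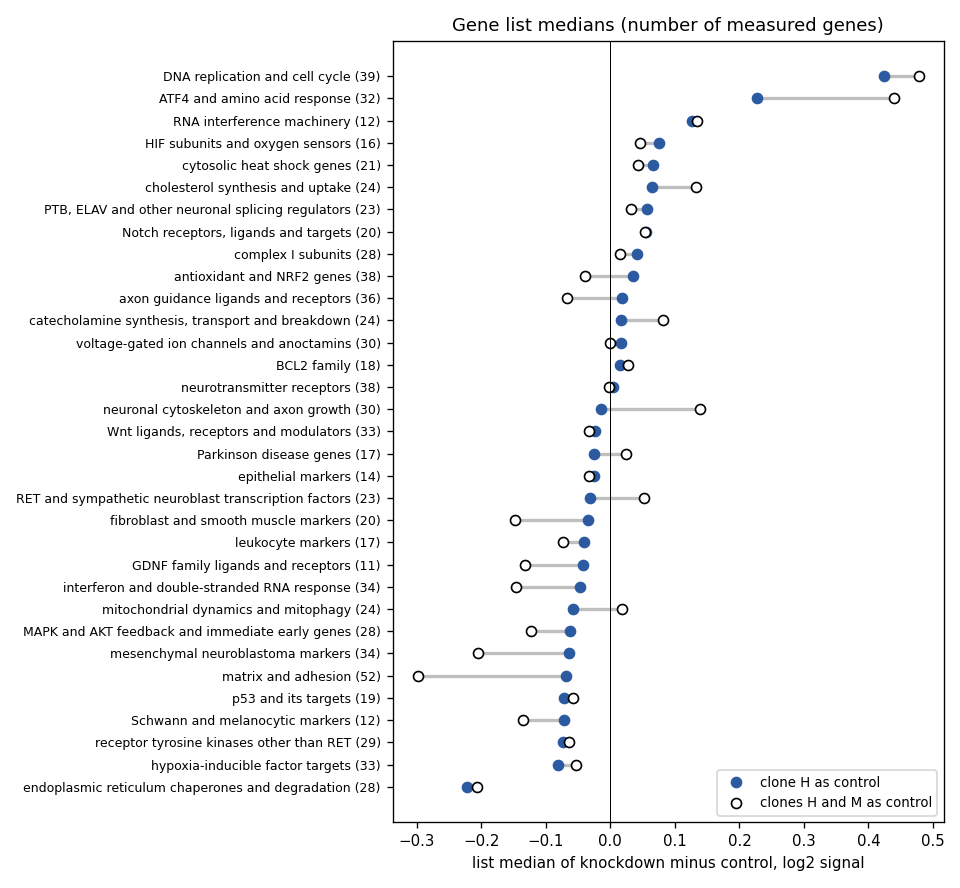
Median difference in log2 signal between knockdown and control over the measured members of each of 33 gene lists, with clone H as the control (filled) and with both scramble clones (open), a bar joining both values. The matrix list moves from -0.30 to -0.07 and the mesenchymal list from -0.21 to -0.06 when clone M is removed, while the cell cycle list stays high, at 0.48 and 0.42, and the chaperone list low, at -0.21 and -0.22.

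DNA replication and cell cycle genes were the list with the most rises against clone H, and they were higher against clone M as well. All 39 measured members had a positive difference, 27 rose and none fell, and 19 rose in both clones. The median was 0.42 against H and 0.54 against M. Within replicate 1 the median was 0.59 and within replicate 2 it was 0.32. The calls rest on the replicate block: without it none of the 39 was called, without array H1 9 were, and without H2 34.

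The subunits of the MCM helicase, which opens DNA at replication origins, rose together. MCM2 read 12.44 and 11.99 in clone B, 12.56 and 11.98 in clone G, and 11.84 and 11.44 in clone H, a rise of 0.60 (SE 0.05, limma adjusted p = 0.000606). MCM3, MCM4, MCM5, MCM6 and MCM7 rose by 0.31, 0.49, 0.63, 0.54 and 0.38. GINS2, of the GINS complex that moves with the helicase, had the largest rise of the list, read 10.83 and 10.17 in clone B, 10.78 and 10.20 in clone G, and 9.89 and 9.67 in clone H, and rose by 0.72 (SE 0.09, limma adjusted p = 0.00291). In clones B, G and H alike replicate 1 read higher than replicate 2, and within each number both knockdown clones were above H.

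Genes of nucleotide supply rose with them, TYMS by 0.40, RRM1 by 0.39, RRM2 by 0.38 and TK1 by 0.50. Cyclins and mitotic genes rose as well: CCNE2 by 0.64, CCNA2 by 0.54, CCNB1 by 0.56, the kinase AURKB by 0.59 and the proliferation marker MKI67 by 0.59. Among the 12 members not called were TOP2A, at 0.15, CCNE1, at 0.05, and CDC6, at 0.47 on its brighter probe set.

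**Figure D5:**
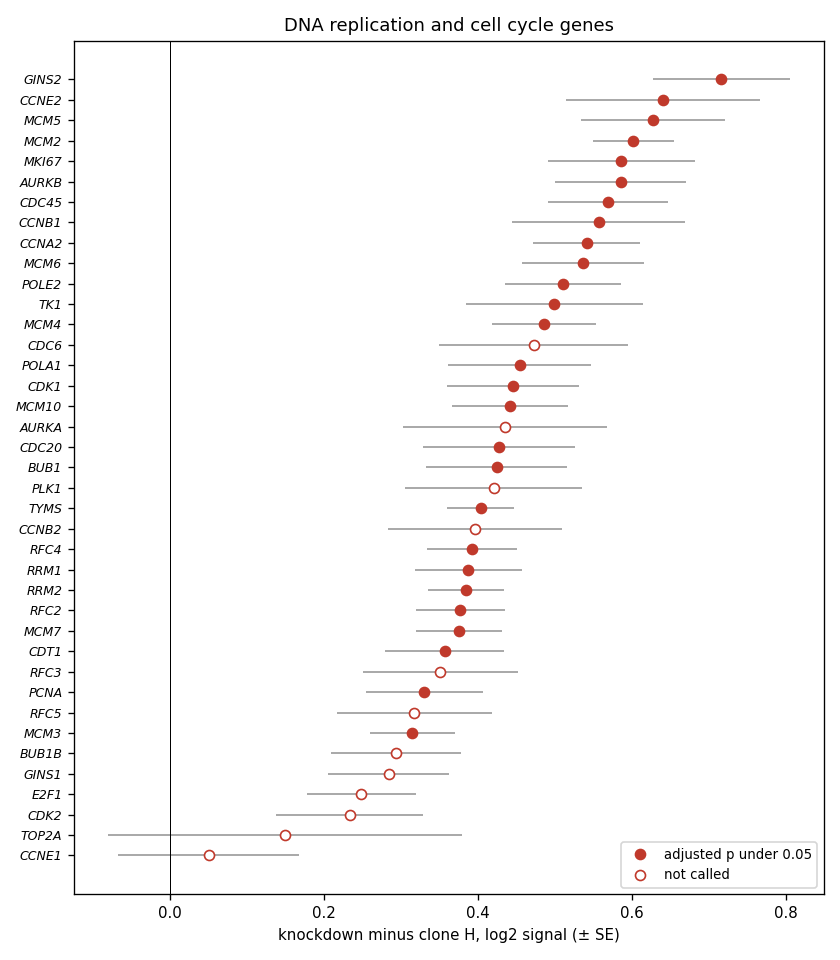
Knockdown minus clone H in log2 signal, with its standard error, for the 39 measured genes of the DNA replication and cell cycle list. Filled points passed an adjusted p of 0.05. All 39 points lie right of 0, from CCNE1 near 0 to GINS2 at 0.72.

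The start regions of these genes were searched for 4 spellings of the 8-letter E2F-type motif, the site through which E2F factors act on replication genes: TTTCCCGC, TTTCGCGC, TTTGCCGC and TTTGGCGC, on both strands. The windows were the 250 bases before the annotated start, from RefSeq on GRCh38.p14. The spellings TTTCGCGC and TTTGGCGC can overlap on opposite strands. Of 35116 windows, 979 held a match (2.79%), and of 27305 genes 928 did (3.40%). Of the 24 genes of the list that rose and had a window, 9 held one: CDK1, CDT1, GINS2, MCM3, MCM6, MCM7, PCNA, POLA1 and TYMS. Of the 10 members not called that had a window, E2F1 and RFC3 did. The windows of GINS2, with the largest rise of the list, and of 3 helicase subunits are shown, on the strand of the gene from 5′ to 3′, with matches in capitals. They lie at chr16:85688955-85689204, chr6:52284743-52284992, chr2:135876444-135876693 and chr7:100101398-100101647, all on the minus strand. Of the 3 MCM7 windows, the 1 with a match is printed.
GINS2: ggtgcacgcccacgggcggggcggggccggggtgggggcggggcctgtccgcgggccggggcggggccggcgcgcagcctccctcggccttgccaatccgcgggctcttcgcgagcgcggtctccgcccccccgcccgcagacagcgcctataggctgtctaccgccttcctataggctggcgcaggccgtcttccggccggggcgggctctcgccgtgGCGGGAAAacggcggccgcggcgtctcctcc
MCM3: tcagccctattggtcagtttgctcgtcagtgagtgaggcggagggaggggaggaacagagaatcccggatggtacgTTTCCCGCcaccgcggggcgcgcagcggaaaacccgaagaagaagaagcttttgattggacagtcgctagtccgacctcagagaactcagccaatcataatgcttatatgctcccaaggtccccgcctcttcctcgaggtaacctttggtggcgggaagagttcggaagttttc
MCM6: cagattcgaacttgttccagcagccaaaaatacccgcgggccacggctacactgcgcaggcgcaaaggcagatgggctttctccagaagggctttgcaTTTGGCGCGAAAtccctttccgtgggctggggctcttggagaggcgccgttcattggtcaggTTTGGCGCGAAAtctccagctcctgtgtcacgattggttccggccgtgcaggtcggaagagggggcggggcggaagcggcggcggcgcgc
MCM7: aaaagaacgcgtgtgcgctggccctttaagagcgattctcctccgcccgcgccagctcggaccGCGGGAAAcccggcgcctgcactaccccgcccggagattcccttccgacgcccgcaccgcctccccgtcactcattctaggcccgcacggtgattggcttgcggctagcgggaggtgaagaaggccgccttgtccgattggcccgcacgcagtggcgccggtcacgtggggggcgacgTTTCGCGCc
MCM6 held 2 pairs of overlapping matches, MCM7 2 separate ones, and GINS2 and MCM3 a single match each. A match describes the letters of the window and was not tested as a binding site. MCM2, which rose by 0.60, held none.

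The stress genes driven by ATF4, with those of amino acid supply, were mostly higher than in clone H, but unevenly over the replicates. Of 32 measured, 9 rose and 1 fell, and the median was 0.23 against H, 0.44 with both controls and 0.66 against clone M. Within replicate 1 the median was 0.47 and within replicate 2 it was 0.06. Leaving out array H1 gave 4 rises and leaving out H2 gave 24, and without the block none was called.

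SLC7A11, the cystine importer, shows this unevenness. It read 8.76 and 10.15 in clone B, 7.88 and 10.20 in clone G, and 5.83 and 9.41 in clone H, so the gap to H was wide in replicate 1 and narrow in replicate 2. It rose by 1.63 (SE 0.36, limma adjusted p = 0.0272). The neutral amino acid transporter genes SLC7A5 and SLC1A4 rose by 0.84 and 0.80, the glutathione-degrading CHAC1 by 0.67 and the lipoprotein receptor VLDLR by 0.58. DDIT3, the stress factor CHOP, went the other way. It read 9.40 and 10.72 in clone B, 9.55 and 10.75 in clone G, and 10.13 and 11.12 in clone H, and fell by 0.52 against H (SE 0.08, limma adjusted p = 0.0067). Against clone M it was 0.64 higher.

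Endoplasmic reticulum chaperones and degradation factors lay mostly below clone H. Of 28 measured, 6 fell and none rose, with a median of -0.22 against H and -0.19 against M. The median was -0.02 within replicate 1 and -0.36 within replicate 2, and without the block none was called. ERO1A, an oxidase of protein disulfides, read 8.91 and 8.92 in clone B, 8.97 and 9.09 in clone G, and 9.59 and 9.45 in clone H, and fell by 0.55 (SE 0.08, limma adjusted p = 0.0067). The related ERO1B fell by 0.66, at signals between 5.86 and 6.79. EDEM1, which sorts glycoproteins for degradation, fell by 0.43, CRELD1 by 0.48, the lectin chaperone CALR by 0.35 and HYOU1 by 0.27.

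Receptor tyrosine kinases other than RET included some of the larger rises. Of 29, 3 rose and 3 fell. ERBB4, a neuregulin receptor, read 8.48 and 7.49 in clone B, 7.82 and 7.28 in clone G, and 6.46 and 5.61 in clone H, a rise of 1.73 (SE 0.17, limma adjusted p = 0.000964). KIT, the stem cell factor receptor, read 8.20 and 7.81 in clone B, 8.22 and 7.65 in clone G, and 6.92 and 6.62 in clone H, a rise of 1.20 (SE 0.09, limma adjusted p = 0.000407). Groups did not overlap for either gene, and clone M sat with H, with ERBB4 at 5.95 and 6.10 and KIT at 7.29 and 6.57. EGFR, IGF1R and TYRO3 fell by 0.45, 0.41 and 0.40. TYRO3 was called in clone B only and not with both controls, where it differed by -0.26 (limma adjusted p = 0.246). FGFR1 rose by 0.35 against H but differed by -0.01 with both controls.

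Of 28 feedback genes of MAPK and AKT signalling and immediate early genes, 4 rose and 6 fell. SPRY1, SPRY2 and SPRY4, the Sprouty inhibitors of receptor tyrosine kinase signalling, fell by 0.97, 0.62 and 0.52, the phosphatase DUSP6 by 0.32, the ETS factor ETV4 by 0.45 and the adaptor IRS2 by 0.52. SPRY1 differed by -2.09 between clone H and clone M, so H itself lay far below the other control. JUN, a subunit of AP-1, read 9.96 and 10.43 in clone B, 9.93 and 10.42 in clone G, and 9.16 and 9.51 in clone H, and rose by 0.85 (SE 0.07, limma adjusted p = 0.000379). JUND rose by 0.20, ATF3 by 0.50 and DUSP1 by 0.31. JUND, ATF3, DUSP1, SPRY4 and DUSP6 were called in neither clone taken singly, and ETV4 in clone B only.

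Of 33 Wnt ligands, receptors and modulators, 6 fell and 3 rose. DKK1, a secreted Wnt inhibitor, read 11.80 and 11.53 in clone B, 11.91 and 11.72 in clone G, and 12.62 and 12.51 in clone H, and fell by 0.82 (SE 0.07, limma adjusted p = 0.000475). DKK2 fell by 2.47, from 8.52 and 7.30 in clone H to between 4.68 and 6.22 in the knockdown arrays, with clone M higher still, at 10.49 and 11.24. DKK3 fell by 0.46, the R-spondin receptor LGR5 by 0.71, FZD7 by 0.64 and the effector TCF7L2 by 0.57. The Frizzled receptor genes FZD2, FZD3 and FZD5 rose by 0.42, 0.39 and 0.45, and FZD2 differed from clone M by -0.03. FZD2 and FZD5 were called in clone B only, and FZD3, FZD7 and TCF7L2 in clone G only. Of 20 Notch genes, NOTCH2 fell and its family's target HEY1 rose, by 0.63, a count near the 9.47% called over all genes.

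Of 24 genes of catecholamine synthesis, transport and breakdown, with the neuropeptides NPY and VIP, 4 fell and 2 rose. VIP, vasoactive intestinal peptide, read 8.14 and 5.43 in clone B, 7.16 and 4.95 in clone G, and 9.79 and 7.81 in clone H, and fell by 2.38 (SE 0.26, limma adjusted p = 0.0015). Within each replicate number the knockdown arrays lay below H. GCH1 and QDPR, which make and recycle the cofactor of tyrosine hydroxylase, fell by 0.56 and 0.39. SLC18A2, the vesicular monoamine transporter, rose by 0.97 at signals between 5.56 and 7.09, and PNMT rose by 0.33.

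Neuronal structural genes moved in both directions. Of 30 genes of the neuronal cytoskeleton and axon growth, 4 rose and 6 fell, with a median of -0.01 against H and 0.14 with both controls. DPYSL3, a collapsin response mediator, read 10.52 and 11.15 in clone B, 10.75 and 11.27 in clone G, and 11.61 and 12.42 in clone H, and fell by 1.10 (SE 0.08, limma adjusted p = 0.000379). The neurofilament genes INA, NEFL and NEFM fell by 0.64, 0.24 and 0.60 and the kinase DCLK1 by 0.41. INA and NEFL were 0.21 and 0.45 higher than in clone M, so their direction turned with the control. The tubulin-binding STMN1 rose by 0.31, and RUFY3, which acts in axon formation, by 0.47. NEFM and STMN1 were called in neither clone taken singly and not with both controls, and NEFL was called in clone B only.

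Of 36 axon guidance genes, 4 rose and 2 fell. SEMA3C, a secreted semaphorin, read 10.01 and 8.23 in clone B, 9.74 and 8.52 in clone G, and 11.21 and 9.99 in clone H, and fell by 1.47 (SE 0.12, limma adjusted p = 0.000418). The ligand gene EFNB2 fell by 0.57. PLXNA1 and NRP1, the paired receptors of class 3 semaphorins, rose by 0.39 and 0.43, beside FLRT3 and PLXNC1. NRP1 differed from clone M by -0.19.

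Of 38 neurotransmitter receptor genes, GRM8, GRIA2 and GRIA4 rose, by 1.66, 0.58 and 0.52, and GRM7 fell by 0.49. That count was near the 9.47% called over all genes. Of 30 voltage-gated channels and anoctamins, 3 rose and 3 fell. ANO3 read 8.81 on both arrays of clone B, 8.45 and 8.68 in clone G, and 7.04 and 6.42 in clone H, a rise of 1.96 (SE 0.17, limma adjusted p = 0.000551). The potassium channel gene KCNMA1 rose by 0.82 and the sodium channel gene SCN9A by 0.59. SCN9A differed by -2.53 between clone H and clone M, and the knockdown differed by -0.67 from both controls. CACNA2D2, KCNH2 and ANO10 fell by 0.59, 0.39 and 0.31.

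Stress and metabolic lists held calls in both directions. Of 38 antioxidant and NRF2 genes, the peroxiredoxins PRDX2 and PRDX3 rose, by 0.20 and 0.24, neither of them called in both clones. GLRX, FTL, NQO2 and AKR1C1 fell, by 0.81, 0.22, 0.33 and 0.49. GLRX, glutaredoxin, read 8.37 and 7.39 in clone B, 8.32 and 7.45 in clone G, and 8.90 and 8.49 in clone H. Of 21 cytosolic heat shock genes, HSPA2 rose by 0.77 and BAG3, a co-chaperone, fell by 0.75. That count was near the 9.47% called over all genes. HSPA2 differed from clone M by -0.14.

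Of 33 targets of the hypoxia-inducible factors, 4 rose and 4 fell. VEGFA, the vascular growth factor, rose by 0.54, ADM by 0.60, DDIT4 by 0.48 and BHLHE40 by 1.09. ALDOC, BNIP3L, ERO1A and P4HA2 fell by 0.32, 0.32, 0.55 and 0.41. BHLHE40 and ALDOC were called in neither clone taken singly, ADM in clone B only, and BNIP3L and P4HA2 in clone G only. BHLHE40, VEGFA, ALDOC and BNIP3L were not called with both controls. BHLHE40 read 6.48 and 9.18 in clone B, 7.08 and 8.69 in clone G, and 6.29 and 7.24 in clone H, so its groups overlapped. Of 16 subunits and oxygen sensors, EPAS1, the HIF-2 alpha subunit, read 12.22 and 12.96 in clone B, 12.16 and 12.68 in clone G, and 11.19 and 12.02 in clone H. It rose by 0.90 (SE 0.08, limma adjusted p = 0.000634), and HIF1A, the HIF-1 alpha subunit, fell by 0.27. The fall of HIF1A was called in neither clone taken singly and not with both controls (limma adjusted p = 0.0694). Its knockdown and clone H arrays overlapped.

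Of 19 genes of p53 and its targets, 5 fell and 1 rose. CDKN1A, the cyclin-dependent kinase inhibitor p21, read 10.35 and 10.65 in clone B, 10.76 and 10.95 in clone G, and 11.64 and 11.21 in clone H, and fell by 0.75 (SE 0.17, limma adjusted p = 0.0285). ZMAT3, TNFRSF10B and TIGAR fell by 0.54, 0.56 and 0.52, CCNG1 by 0.23, and the phosphatase PPM1D rose by 0.26. CDKN1A, TIGAR and CCNG1 were called in clone B only, and PPM1D in neither clone taken singly. Of 18 BCL2 family genes, BCL2 and BNIP3L fell, by 0.56 and 0.32, and BCL2L1 and HRK rose, by 0.28 and 0.91. HRK, a BH3-only death activator, differed from clone M by -0.79.

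Of 24 cholesterol genes, 3 rose and 3 fell. The synthesis genes IDI1 and FDPS rose by 0.61 and 0.34 with the receptor VLDLR, and the regulator SREBF1, the lysosomal carrier NPC2 and the exporter ABCG1 fell by 0.65, 0.77 and 0.86. Of 34 genes of the interferon and double-stranded RNA response, ISG15 rose by 0.51 and ADAR fell by 0.25. Of 12 genes of the RNA interference machinery, TARBP2, a partner of Dicer, rose by 0.28, called in neither clone taken singly. The interferon and RNA interference counts lay below the 9.47% called over all genes.

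The 2 knockdown clones differed from each other in 4 probe sets (0.018%), with 1079 at an unadjusted p under 0.05. DNAJC15, a mitochondrial co-chaperone, read 9.88 and 9.18 in clone B, 7.60 and 7.02 in clone G, and 9.88 and 9.54 in clone H, so it was low in clone G only, where it differed from H by -2.40 (limma adjusted p = 2.34e-05 for G minus H). TIMP1, a tissue inhibitor of metalloproteinases, read 7.33 and 7.38 in clone B, 9.28 and 9.34 in clone G, and 7.16 and 6.83 in clone H, and was high in clone G only, by 2.32. SLITRK5, a synaptic adhesion gene, was higher in B than in G by 1.31, and MYO16, an unconventional myosin, lower by 1.02. None of these 4 was called for the mean of both clones against H. The limma test without the block called 0 probe sets between B and G.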

How the data were processed

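RNA of 8 SH-SY5Y samples had been hybridised to Affymetrix arrays. The deposited values are log2 signals made with GCOS and RMA, per the submitters' processing notes (versions are not given in the sources used here), and the log2 scale was checked on the values. Of 22277 probe sets, 62 array controls were left out and 22215 tested. Groups and replicate numbers came from the sample titles.

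The knockdown was set against clone H in limma 3.58.1 (R 4.3.3) with an intensity trend and the replicate number as a block, and p-values were adjusted by Benjamini-Hochberg over all 22215 at a threshold of 0.05. Each clone against H, both scramble clones, and clones B and G used the same test. Arrays that share a number deviated together from the means of their clones (r 0.42 to 0.78 over the 6 pairs of clones), so the numbers were taken to pair the arrays, a hint from the data on numbers in the titles. A gene in a list is its brightest probe set over the 6 arrays. Named by a fixed rule were the 4 markers and the 12 largest rises and 12 largest falls that stayed. These rises and falls had no overlap with H, a brighter side at or above the median probe set, and calls in both clones. The rule also named the 8 of each called against H only or lost, and up to 4 members per list with the smallest p. Other list members, and the genes that differ between B and G, were named after their values were seen. The members and lists were chosen with earlier results of these data known. The test was also run on simulated data with independent noise on each array. Those data held no differences between clones of a condition, so that run does not bear on clone effects. Promoter windows came from RefSeq, GRCh38.p14. With 6 arrays and 3 residual degrees of freedom, the number of arrays limits the precision. Alternatives were no block, clone as a random block, averaged duplicates, no trend, quantile normalization, a low-signal filter, other controls, single replicates and each array left out.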

Additional observations from a re-analysis of the deposited data

Results flagged for a closer look

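Among 4 knockdown arrays, 5 named probe sets had 1 array apart from the others, with a gap above Dixon's 95% critical value. PHOX2A read 13.30 on array G1 and 13.07 on the nearest array. CALCOCO2 read 8.74 on G1 beside 8.56, and ERO1B 6.03 on B2 beside 5.88. PDLIM3 read 9.85 on G2 beside 10.06, and DCLK1 9.26 on B1 beside 9.35. In all, 225 probe sets were screened this way, and chance alone marks about 1 group in 20.

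Clones B and G differed from each other, by limma's test of B minus G, for 4 genes: DNAJC15 by 2.23 (adjusted p = 0.000227), TIMP1 by -1.96 (adjusted p = 0.00107), SLITRK5 by 1.31 (adjusted p = 0.0344) and MYO16 by -1.02 (adjusted p = 0.013). DNAJC15 was low in clone G, and TIMP1 was high in clone G.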

How the results depend on the processing

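The fit without the replicate block called 86 probe sets against clone H in place of 1868, 6 in both clones in place of 878, 489 with both controls in place of 1568, 1790 against clone M in place of 5447, 234 between H and M in place of 1538, and 15 list members in place of 170. Between B and G limma called 0 without the block and 4 with it (1079 at an unadjusted p under 0.05 with the block). A model with 1 mean per clone on 8 arrays gave 736 against H, 221 in both clones, 2 between B and G and 73 list members. Clone M as the only control gave 6031 and 355 list members, and replicate 1 alone 474 and 89. Without the intensity trend 428 were called in both clones and 2 between B and G, and the low-signal filter gave 1021 between H and M. With 1 array left out, calls against H ran from 639 (without H1) to 1876 (without B1), calls in both clones from 320 (without G1) to 1752 (without H2), and those between B and G from 5 (without B1) to 33 (without H1). With both controls they ran from 327 (without B2) to 3203 (without H2), against M from 2994 (without G2) to 5144 (without H1), and between H and M from 257 (without H2) to 2150 (without M1). List members ran from 93 (without H1) to 177 (without H2). The causes were not tested.

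Of 193 named probe sets called against H, 27 kept the call without the block, 98 with 1 mean per clone on 8 arrays and 103 without array H1. Directions turned with clone M as the only control for HSD17B12 (-0.011), GAS1 (-0.19), ABCG1 (0.50), CDH2 (-0.13), QKI (-0.23), DDIT3 (0.64), FGFR1 (-0.38), FZD2 (-0.029), INA (0.21), NEFL (0.45), NRP1 (-0.19), SCN9A (-1.94), HSPA2 (-0.14), CCNG1 (0.062) and HRK (-0.79). With both controls they turned for DDIT3 (0.060), FGFR1 (-0.014), NEFL (0.11) and SCN9A (-0.67).

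Genes that were not called also changed sign. With clone M alone and with both controls, GFRA1 differed by -0.13 and -0.030, GFRA2 by -0.32 and -0.13, and PHOX2A by 0.14 and 0.052. In replicate 1 alone, HAND2 differed by -0.044, GFRA2 by -0.066, MYCN by 0.20 and ELAVL2 by 0.057. In replicate 2 alone, GFRA1 differed by -0.15, PHOX2A by 0.11, ELAVL3 by -0.15, ELAVL4 by -0.095, PINK1 by 0.057, TOP2A by -0.046 and CCNE1 by -0.23. In clone G alone PHOX2A (0.014) and TOP2A (-0.20) turned, and in clone B alone ELAVL4 (-0.011). With 1 array left out the ranges were -0.044 to 0.13 for HAND2, -0.15 to 0.29 for GFRA1, -0.066 to 0.18 for GFRA2, -0.18 to 0.11 for PHOX2A, -1.19 to 0.20 for MYCN, -0.24 to 0.057 for ELAVL2, -0.15 to 0.20 for ELAVL3, -0.095 to 0.21 for ELAVL4, -0.23 to 0.057 for PINK1, -0.069 to 0.35 for TOP2A and -0.23 to 0.33 for CCNE1. No measure of background was used, so nothing here says how far a dim probe set lies above it.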
